A study of Mus musculus with 13 samples.

Results

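Rab GTPases are the small GTP-binding proteins that give each membrane compartment its identity. The family was followed through postnatal maturation of the mouse heart. Members were all protein-coding genes whose symbol is Rab, a number and an optional letter, which leaves out interacting proteins such as the Rab11fip and Rab3gap genes. The annotation holds 59 such genes, and 57 of them had at least 1 transcript in the deposited tables, which hold transcripts of 20766 protein-coding genes in all. Rab4a and Rab21 were not analysed here. All libraries came from wild-type mice of the FvB strain, with the atria removed. Whole ventricles were sequenced at embryonic day 17 (E17) and at postnatal days (PN) 1, 10, 28 and 90, with 1 library per stage. Cardiomyocytes were sequenced as 2 neonatal libraries (PN1-2 and PN1) and as 1 library each at PN30 and PN67. Cardiac fibroblasts were sequenced as 2 neonatal libraries (PN1-3 and PN1-2) and as 1 library each at PN28 and PN60. The libraries of PN28 and older are called later, and each later class therefore pools 2 different ages. Later cardiomyocytes came from Langendorff perfusion of the heart and neonatal ones from digestion with preplating, so in cardiomyocytes age and isolation method cannot be told apart. Fibroblasts of every age came from preplating after enzymatic digestion. Nothing in the labels says whether the 2 neonatal libraries of a cell type came from separate animals or cultures, so a p-value speaks only of the spread among these libraries, which may be technical. With 2 libraries against 2, no permutation test can get down to 0.05, and every p given here comes from limma, a linear model that shares variance information across all genes, with Benjamini-Hochberg adjustment over all of them.

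A Rab protein cycles between an inactive GDP-bound form in the cytosol and an active GTP-bound form on a membrane. Guanine nucleotide exchange factors switch it on, GTPase-activating proteins switch it off, and effectors such as tethers, motors and lipid kinases bind the active form. Prenyl groups at the C-terminus anchor the protein, and the GDP dissociation inhibitors extract it for another round. In muscle cells, Rab proteins are known for moving glucose transporters, ion channels and receptors between internal stores and the surface membrane.

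The deposited values are FPKM, fragments scaled to transcript length and to the mapped total of the library, so levels of different genes can be set side by side. Where short transcripts hold much of a gene, as for Rab11a, its level depends on which transcripts are summed. Gene FPKM was the sum over transcripts of at least 200 nt, scaled to the median gene separately in the 8 cell and the 5 ventricle libraries. Cell and ventricle libraries were prepared with different kits, and no test was made between them. The 8 cardiomyocyte markers were all higher in cardiomyocytes than in fibroblasts. Of the 6 fibroblast markers measured in cells, 5 were higher in fibroblasts and none in cardiomyocytes. In neonatal fibroblasts the median cardiomyocyte marker stood at 9.69% of the cardiomyocyte level of that age, and in later fibroblasts at 0.0668%. The median fibroblast marker in cardiomyocytes stood at 9.38% (neonatal) and 19.6% (later) of the fibroblast level. In fibroblasts the 8 macrophage and leukocyte markers all rose with age, from a summed 110 and 212 FPKM to 1058 at PN28 and 855 at PN60. In cardiomyocytes these markers summed to 79.6 and 103 FPKM in the neonatal libraries, 255 at PN30 and 277 at PN67. There 4 of the 8 rose and 1 fell. In cardiomyocytes the 3 measured erythroid markers all fell, from a summed 15712 and 20558 FPKM to 1099 at PN30 and 719.5 at PN67. The 6 endothelial markers also all fell in cardiomyocytes, from a summed 1044 and 1232 FPKM to 282 and 291, and the 3 proliferation markers fell in both cell types. In fibroblasts 5 of the 6 endothelial markers fell as well. The part of these other cells in the Rab results was not tested.

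The Rab genes together summed to between 1088 and 1180 FPKM in the cardiomyocyte libraries, between 1292 and 1546 FPKM in the fibroblast libraries and between 716 and 867 FPKM in the ventricles. Between 36 and 41 members reached 1 FPKM in any 1 library. The 5 most abundant members held 44.7% to 48.8% of the family's FPKM in cardiomyocytes, 44.9% to 49.7% in fibroblasts and 42.1% to 45.5% in ventricles. Rab7, which directs traffic from late endosomes to lysosomes, was the highest member in every cell library except the first neonatal cardiomyocyte library, where Rab11a was. By mean FPKM the 5 leading members were Rab7 (167.0), Rab11a (127), Rab1b (83.8), Rab2a (83.4) and Rab11b (66.9) in cardiomyocytes. In fibroblasts they were Rab7 (257), Rab11a (144), Rab1a (97.0), Rab2a (80.4) and Rab5a (75.5). In ventricles they were Rab2a (103), Rab11a (84.7), Rab10 (62.1), Rab9 (47.2) and Rab1a (45.1). These sums, shares and ranks leave out the main transcript of Rab12, which has the software status LOWDATA. With it kept, Rab12 measured 59.8, 79.7, 101, 192 and 180 FPKM in ventricles from E17 to PN90. At PN28 and PN90 this exceeded Rab2a. In cardiomyocytes Rab12 then measured 44.3 and 48.2 FPKM in the neonatal libraries, 102 at PN30 and 114 at PN67. Rab2a, which acts between the Golgi and the endoplasmic reticulum (ER) and in lysosome delivery, lay between 70.6 and 121 FPKM in all 13 libraries. Its changes did not pass the test as scaled here, but in fibroblasts it was lower with FPKM as deposited (-0.53, adjusted p = 0.00426) and with equal sums (-0.53, adjusted p = 0.00398), and in cardiomyocytes with equal sums (-0.35, adjusted p = 0.0144).

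**Figure D1:**
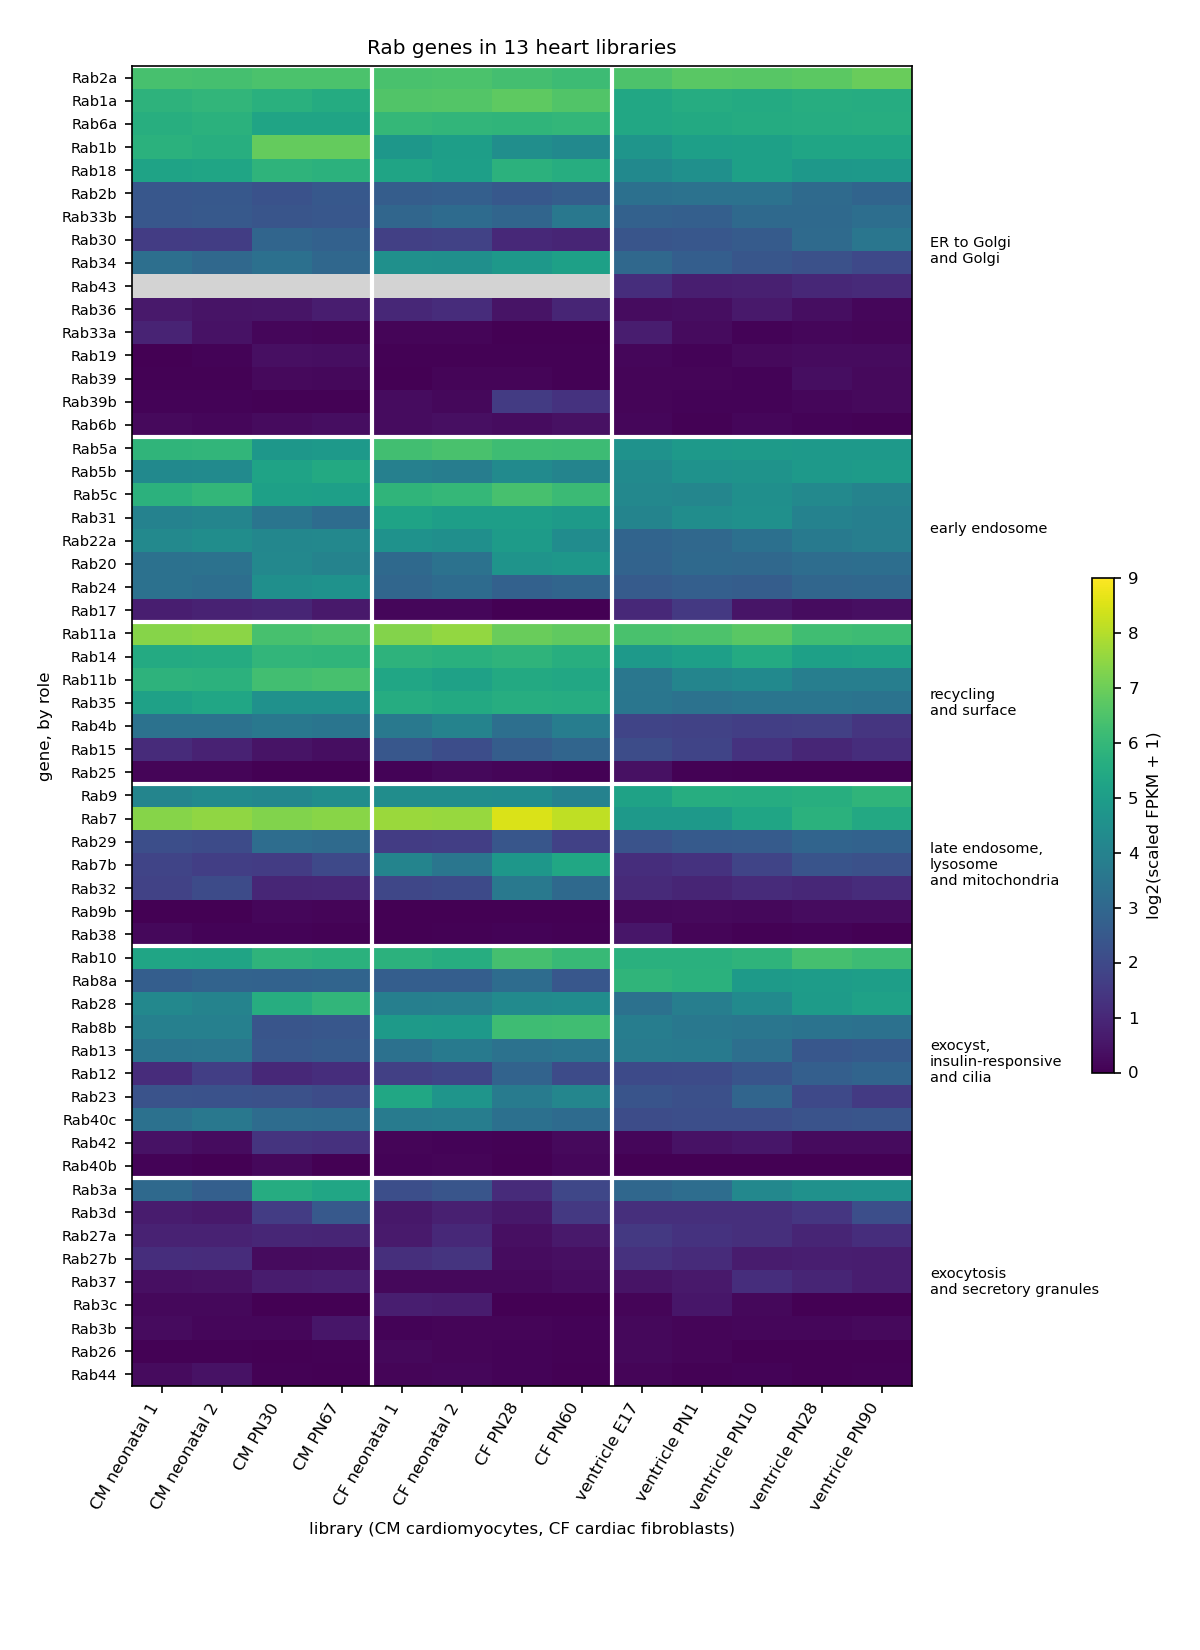
Level of the 57 Rab genes in the 13 libraries as log2(scaled FPKM + 1), with genes in rows grouped by role and libraries in columns (CM cardiomyocytes, CF cardiac fibroblasts). Rab2a, Rab11a and Rab1a are bright in every column, the rise of Rab3a, Rab28 and Rab1b stands out in CM PN30 and CM PN67, and grey marks Rab43 in the cells, where the software failed in 1 library. Rab12 and Rab40b are drawn without their LOWDATA transcripts.

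Of the 56 members measured in the cells, 37 passed the filter of a mean of at least 1 FPKM. In cardiomyocytes, 13 of these rose and 10 fell between the neonatal and the later libraries. Over all 12095 genes tested, 67.3% changed in this comparison (36.9% higher, 30.3% lower), so the family's share of changed genes was close to that background. The median change of the 37 members was -0.01 on the log2(FPKM + 1) scale, against 0.09 over all genes. The libraries of the 2 ages did not overlap for 30 of the 37, against 89.7% of all genes. In fibroblasts, 8 members rose and 5 fell, against a background of 41.1% (19.7% higher, 21.4% lower), with a median of 0.13 against -0.03 over all genes. The 2 ages did not overlap for 28 of the 37 in fibroblasts, against 69.7% of all genes. The postnatal changes of the 2 cell types differed from each other for 18 members (7 above and 11 below 0), against a background of 58.9% (32.3% above, 26.6% below). The count of fibroblast calls rested on single libraries: it was 5 without the second neonatal library and 20 without the PN60 library. Scaling also moves these splits. With FPKM as deposited, the median of all genes shifted to -0.19 in cardiomyocytes and -0.29 in fibroblasts, and the members split into 9 higher and 15 lower in cardiomyocytes and 4 higher and 14 lower in fibroblasts. With mitochondrially encoded genes removed and equal sums, they split into 8 higher and 16 lower and again into 4 higher and 14 lower. Under both of these scalings Rab2b, Rab6a and Rab14 were also called lower in fibroblasts, and Rab2b, Rab22a and Rab40c in cardiomyocytes, none of which passed as scaled here.

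**Figure D2:**
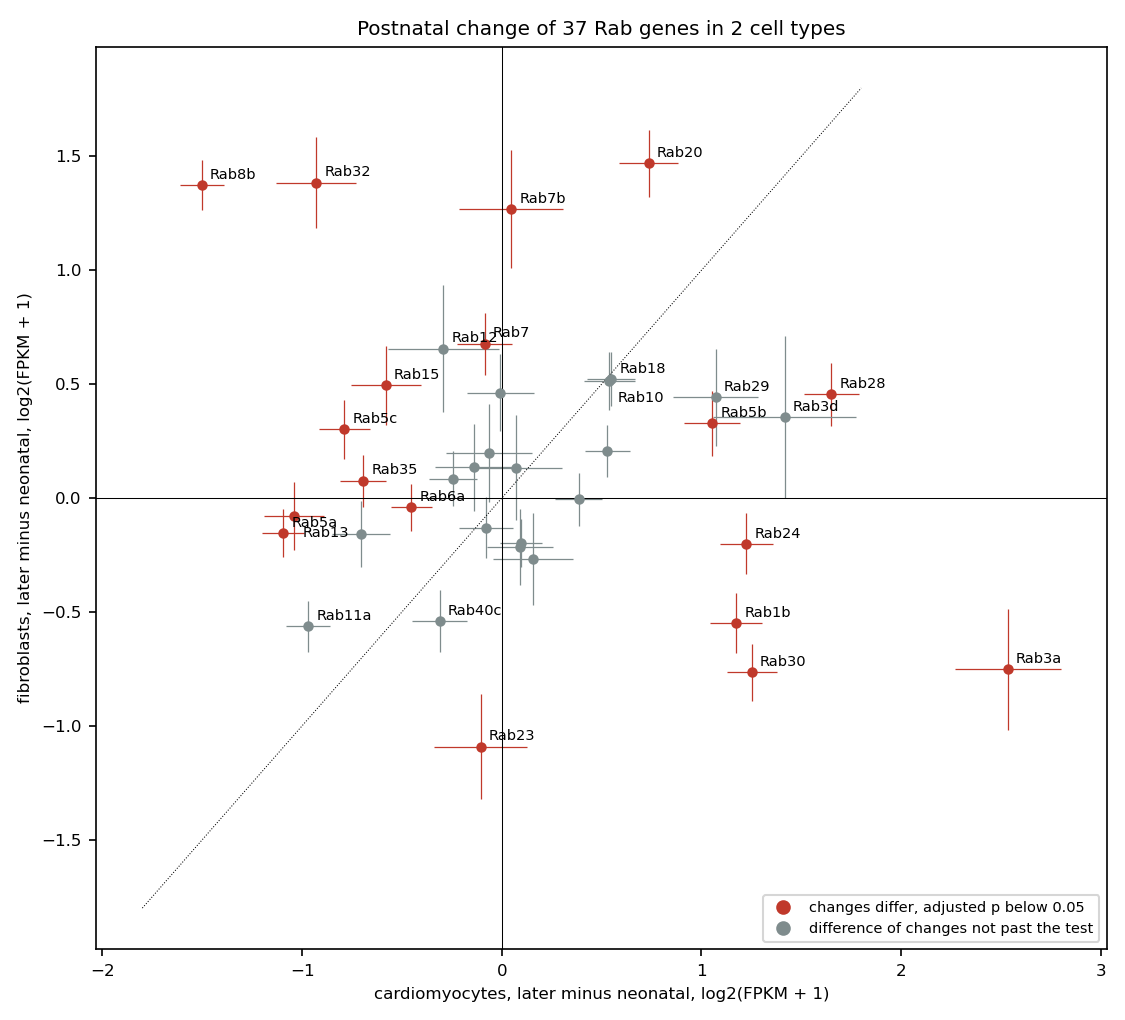
Change from the neonatal to the later libraries for the 37 tested Rab genes, in cardiomyocytes (horizontal) and fibroblasts (vertical), both as differences of log2(FPKM + 1) with bars of 1 standard error from limma. Red points are the 18 members whose changes differed between the cell types; Rab8b and Rab32 lie at the upper left and Rab3a, Rab30 and Rab1b at the lower right, away from the dotted line of equal change.

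Among the 9 tested members of ER-to-Golgi and Golgi transport, 3 rose and 1 fell in cardiomyocytes (all genes 36.9% higher and 30.3% lower). Rab1a and Rab1b, the paralogs that tether vesicles from the ER to the Golgi, differed in their pattern. Rab1b (mm9 chr19:5099207-5107019) measured 53.0 and 49.3 FPKM in neonatal cardiomyocytes, 116 at PN30 and 117 at PN67. In fibroblasts it measured 26.5 and 31.7 FPKM in the neonatal libraries, 20.9 at PN28 and 18.2 at PN60. No later library overlapped the neonatal ones in either cell type, and the direction was opposite. Rab1b rose by 1.17 in cardiomyocytes (SE 0.13, limma adjusted p = 0.000159) and fell by 0.55 in fibroblasts (adjusted p = 0.0134, or 0.0996 without the second neonatal library), and the difference of changes was 1.72 (SE 0.19, adjusted p = 0.000231). Rab1a measured 44.9 to 59.1 FPKM in cardiomyocytes and 93.3 to 107 in fibroblasts, and neither change passed the test as scaled here. In cardiomyocytes Rab1a was lower with FPKM as deposited (-0.59, adjusted p = 0.0032) and with equal sums (-0.69, adjusted p = 0.00128). Rab1b held 45.5% to 49.1% of the Rab1 FPKM in neonatal cardiomyocytes, 69.4% to 72.3% in later ones, and 16.3% to 25.1% in fibroblasts.

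Rab30, a Golgi-resident member, behaved like Rab1b at a lower level. It measured 2.02 and 2.09 FPKM in neonatal cardiomyocytes against 6.66 at PN30 and 5.90 at PN67, and 2.27 and 2.46 FPKM in neonatal fibroblasts against 1.04 at PN28 and 0.924 at PN60. The later libraries were all above the neonatal ones in cardiomyocytes and all below them in fibroblasts. The change was 1.25 in cardiomyocytes (SE 0.13, adjusted p = 9.57e-05) and -0.76 in fibroblasts (adjusted p = 0.00277), with a difference of 2.02 (SE 0.18, adjusted p = 9.44e-05). The falls of Rab1b and Rab30 in fibroblasts stood beside the fall of the summed cardiomyocyte markers there, from 1130 and 1281 FPKM to 26.3 and 34.4, and the part of that fall was not tested. Rab18, which works at the ER and lipid droplets, rose in both cell types, by 0.55 in cardiomyocytes (adjusted p = 0.00441) and 0.52 in fibroblasts (adjusted p = 0.0107). Neither of these 2 calls held with FPKM as deposited or with equal sums. Rab34, a Golgi and cilium member, measured 7.09 to 8.91 FPKM in cardiomyocytes and 21.2 to 33.7 FPKM in fibroblasts, with no overlap.

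Among the 7 tested early endosome members, 3 rose and 3 fell in cardiomyocytes (all genes 36.9% and 30.3%), and the Rab5 paralogs split. The Rab5 proteins control entry of endocytic vesicles and fusion of early endosomes. Rab5a measured 58.1 and 59.2 FPKM in neonatal cardiomyocytes, 26.4 at PN30 and 27.4 at PN67. Rab5c measured 54.1 and 61.8 FPKM against 33.3 and 32.8. Rab5b ran the other way, from 18.2 and 18.9 FPKM to 36.4 and 42.8. In none of the 3 did the 2 ages overlap. Rab5a fell by 1.10 (SE 0.11, adjusted p = 7.87e-05), Rab5c fell by 0.79 (SE 0.13, adjusted p = 0.00114) and Rab5b rose by 1.05 (SE 0.14, adjusted p = 0.000397). Rab5b thus went from 13.5% to 13.9% of the Rab5 FPKM in neonatal cardiomyocytes to 37.9% to 41.5% in later ones, while it stayed at 8.11% to 10.9% in fibroblasts. In fibroblasts none of the 3 changes passed the test (Rab5a -0.15, Rab5b 0.33, Rab5c 0.30), but Rab5a was lower there with FPKM as deposited (-0.49, adjusted p = 0.00726) and with equal sums (-0.49, adjusted p = 0.00704). The differences of changes were -0.94 for Rab5a, 0.72 for Rab5b and -1.09 for Rab5c, with adjusted p of 0.00136, 0.0162 and 0.00183. The Rab5b difference lost the call in 4 of the 8 fits that left out 1 library, with adjusted p up to 0.0602.

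Because paralogs could share reads, the coding sequences of the pairs were compared. The 20 same-number pairs with a reference transcript had 62.5% to 78.5% identical coding bases, with longest identical runs of 13 to 38 bases. The same 90 coding bases of the 3 Rab5 genes, which begin at a nucleotide-binding motif shared by the family, show how single-base differences are spread over the paralogs; capitals mark the 28 positions at which not all 3 agree. They were read from the GENCODE M21 transcripts on GRCm38, at chr17:53497586-53497675 (plus strand) for Rab5a, chr10:128683198-128683287 (minus) for Rab5b and chr11:100718434-100718523 (minus) for Rab5c.
Rab5a: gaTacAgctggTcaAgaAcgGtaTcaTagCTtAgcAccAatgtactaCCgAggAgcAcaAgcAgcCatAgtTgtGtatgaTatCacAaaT
Rab5b: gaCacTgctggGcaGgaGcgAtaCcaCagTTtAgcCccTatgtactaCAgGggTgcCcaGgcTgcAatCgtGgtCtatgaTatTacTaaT
Rab5c: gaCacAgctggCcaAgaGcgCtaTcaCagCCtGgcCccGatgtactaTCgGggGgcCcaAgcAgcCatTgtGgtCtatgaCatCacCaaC

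Rab24, an atypical member linked to autophagy, rose from 9.18 and 8.57 FPKM to 21.2 at PN30 and 23.0 at PN67 in cardiomyocytes (1.23, SE 0.13, adjusted p = 0.000146). In fibroblasts it measured between 5.88 and 7.92 FPKM, and the change of -0.20 did not pass the test, but it passed with FPKM as deposited (-0.50, adjusted p = 0.0203) and with equal sums (-0.50, adjusted p = 0.0196). Its exons share 1258 bases with those of Prelid1 on the opposite strand in the annotation, and the labels do not say whether strand was used in counting, so reads of the 2 genes may not be told apart. Prelid1 itself fell in cardiomyocytes, from 104 and 115 FPKM to 39.7 and 31.5. Rab20, an endosome and phagosome member, rose in both cell types, from 9.18 and 9.41 FPKM to 17.2 and 15.1 in cardiomyocytes (0.74, adjusted p = 0.00295) and from 7.53 and 9.57 FPKM to 24.3 and 26.4 in fibroblasts (1.47, SE 0.15, adjusted p = 0.000299). The cardiomyocyte call was lost with equal sums. Rab31, which sorts receptors at the trans-Golgi and endosomes, fell in cardiomyocytes from 14.9 and 16.1 FPKM to 10.2 and 8.10 (-0.71, adjusted p = 0.00353) and lay at 28.9 to 36.1 FPKM in fibroblasts, where it was lower only with FPKM as deposited (-0.49, adjusted p = 0.0273) and with equal sums (-0.49, adjusted p = 0.0266).

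Among the 6 tested recycling members, 2 rose and 3 fell in cardiomyocytes (all genes 36.9% and 30.3%). Rab11a and Rab11b are the paralogs of the recycling endosome. Rab11a (mm9 chr9:64563106-64585565) measured 166 and 172 FPKM in neonatal cardiomyocytes, 83.3 at PN30 and 88.1 at PN67. In fibroblasts it measured 161 and 184 FPKM in the neonatal libraries, 121 at PN28 and 111 at PN60. Later libraries were below the neonatal ones in both cell types. The fall was 0.97 in cardiomyocytes (SE 0.11, adjusted p = 0.000181) and 0.56 in fibroblasts (SE 0.11, adjusted p = 0.0061, or 0.0561 without the second neonatal library), and the difference of changes of -0.41 did not pass (adjusted p = 0.0567). That difference passed with FPKM as deposited (-0.41, adjusted p = 0.0497) and with equal sums (-0.52, adjusted p = 0.0204). Rab11b moved the other way in cardiomyocytes, from 54.8 and 54.3 FPKM to 75.9 and 82.6, with no overlap (0.53, SE 0.11, adjusted p = 0.0041). That call was lost with FPKM as deposited and with equal sums. Rab11b made up 24.0% to 24.8% of the Rab11 FPKM in neonatal and 47.7% to 48.4% in later cardiomyocytes. This shift in share depends on which Rab11a transcripts are summed.

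The Rab11a result depends on which transcripts are summed. Transcripts shorter than 1000 nt held 85.7% to 86.7% of Rab11a FPKM in neonatal cardiomyocytes, 63.9% and 66.9% in later ones and 80.1% to 84.7% in fibroblasts. The longest transcript, Rab11a-208 (2336 nt) measured 22.1 and 24.6 FPKM in neonatal cardiomyocytes, 30.1 at PN30 and 29.2 at PN67, and 25.1, 28.1, 24.1 and 19.1 FPKM in the fibroblast libraries in the same order of age. Its share of the gene rose in cardiomyocytes from 13.3% and 14.3% to 36.1% at PN30 and 33.1% at PN67 (20.8 percentage points, adjusted p = 0.000327). Summing only transcripts of at least 1000 nt, a choice made after seeing these values, reversed the direction of Rab11a in cardiomyocytes to 0.32 (adjusted p = 0.0853) and left -0.30 in fibroblasts (adjusted p = 0.135). The difference of changes then was 0.61 (adjusted p = 0.0337). Among the short transcripts, Rab11a-203 (397 nt) measured 33.9 and 36.1 FPKM in neonatal cardiomyocytes against 9.73 at PN30 and 9.39 at PN67, and Rab11a-207 (508 nt) measured 19.9 and 18.3 FPKM against 2.01 and 2.55. The 90 coding bases that begin at the same motif differ between the Rab11 paralogs at 19 positions, in capitals (GRCm38 chr9:64726769-64728274 and chr17:33749012-33749822, both on the minus strand and each spanning an intron).
Rab11a: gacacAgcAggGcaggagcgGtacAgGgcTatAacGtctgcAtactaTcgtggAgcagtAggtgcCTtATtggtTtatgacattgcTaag
Rab11b: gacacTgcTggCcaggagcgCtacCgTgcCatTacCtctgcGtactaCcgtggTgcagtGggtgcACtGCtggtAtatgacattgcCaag

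Rab35, which recycles cargo from endosomes to the surface, fell in cardiomyocytes from 34.7 and 39.4 FPKM to 22.3 and 22.6 (-0.70, SE 0.11, adjusted p = 0.00113) and lay between 43.1 and 47.8 FPKM in fibroblasts. Rab15, an inhibitor of early endosome fusion, was low in cardiomyocytes (1.16 and 0.824 FPKM, then 0.390 at PN30 and 0.268 at PN67) and measured 4.50 and 3.38 FPKM, then 5.29 and 6.60, in fibroblasts. The groups did not overlap, and the 2 cell types differed by -1.84 over both ages (SE 0.12, adjusted p = 6e-06). Rab14, of the trans-Golgi and endosomes, rose by 0.39 in cardiomyocytes (adjusted p = 0.0207), but the call was lost in 4 of the fits that left out 1 library and with FPKM as deposited, and the sign turned with equal sums (-0.06).

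Among the 5 tested late endosome, lysosome and mitochondria members, 1 rose and 1 fell in cardiomyocytes (all genes 36.9% and 30.3%), and 3 rose and none fell in fibroblasts (all genes 19.7% and 21.4%). Rab7 (mm9 chr6:87949100-87995264) measured 201 and 193 FPKM in neonatal fibroblasts, 355 at PN28 and 280.4 at PN60. In cardiomyocytes it measured between 154 and 180 FPKM, with a change that did not pass as scaled here but was lower with FPKM as deposited (-0.43, adjusted p = 0.0167) and with equal sums (-0.54, adjusted p = 0.00618). The fibroblast rise was 0.68 (SE 0.14, adjusted p = 0.00667), was lost with either other scaling, and had an adjusted p of 0.0514 without the second neonatal library. Rab7b, which acts between late endosomes and the trans-Golgi, measured 15.7 and 10.5 FPKM in neonatal fibroblasts, 26.2 at PN28 and 39.8 at PN60, against 2.07 to 2.95 FPKM in all 4 cardiomyocyte libraries. It rose in fibroblasts by 1.27 (SE 0.26, adjusted p = 0.00695, or 0.0551 without the second neonatal library) and was lower in cardiomyocytes by 2.65 over both ages (SE 0.18, adjusted p = 7.1e-06). Rab32, which is found on mitochondria and lysosome-related organelles, measured 2.80 and 3.06 FPKM in neonatal fibroblasts, 11.4 at PN28 and 7.49 at PN60, and 2.43 and 3.17 FPKM in neonatal cardiomyocytes, 0.949 at PN30 and 1.02 at PN67. It rose by 1.38 in fibroblasts (SE 0.20, adjusted p = 0.0016) and fell by 0.93 in cardiomyocytes (adjusted p = 0.00421), with a difference of -2.31 (SE 0.28, adjusted p = 0.000401). These fibroblast rises of Rab7, Rab7b and Rab32, and that of Rab20, stood beside the rise of all 8 macrophage and leukocyte markers in the same libraries; Cd68 went from 12.3 and 21.8 FPKM to 121 and 75.9, and Ptprc from 0.502 and 0.784 to 6.49 and 4.85. Their part in the result was not tested. Rab29, of lysosomes and the trans-Golgi, rose in cardiomyocytes from 3.45 and 3.14 FPKM to 8.27 and 7.75 (1.07, adjusted p = 0.00286). Rab9, which returns receptors from late endosomes to the trans-Golgi, lay at 15.1 to 20.3 FPKM in the cells, and its change passed only in fibroblasts with FPKM as deposited (-0.54, adjusted p = 0.023) and with equal sums (-0.54, adjusted p = 0.0236).

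Among the 8 tested members of exocyst, insulin-responsive and ciliary traffic, 2 rose and 2 fell in cardiomyocytes (all genes 36.9% and 30.3%) and 3 rose and 2 fell in fibroblasts (all genes 19.7% and 21.4%). Rab8b changed in opposite directions in the 2 cell types. Rab8a and Rab8b drive vesicles from the trans-Golgi and recycling endosomes to the plasma membrane and the cilium. Rab8b (mm9 chr9:66691479-66767512) measured 14.0 FPKM in both neonatal cardiomyocyte libraries, 4.17 at PN30 and 4.44 at PN67. In fibroblasts it measured 28.7 and 27.3 FPKM in the neonatal libraries, 73.0 at PN28 and 75.3 at PN60. No library of one class overlapped any other class. Rab8b fell by 1.50 in cardiomyocytes (SE 0.11, adjusted p = 2.49e-05) and rose by 1.37 in fibroblasts (SE 0.11, adjusted p = 0.000114), and the difference of changes was -2.88 (SE 0.15, adjusted p = 1.34e-05). Mean Rab8b in later fibroblasts was 1722% of that in later cardiomyocytes, and the figure for the neonatal libraries was 199.6%. Rab8a lay between 4.45 and 8.07 FPKM in the cells and passed no test there, so Rab8b fell from 68.9% to 72.04% of the Rab8 FPKM in neonatal cardiomyocytes to 40.9% in both later libraries.

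Rab28, a farnesylated ciliary member, rose in cardiomyocytes from 17.3 and 15.3 FPKM to 48.1 at PN30 and 59.0 at PN67, with no overlap (1.65, SE 0.14, adjusted p = 4.35e-05). In fibroblasts it went from 13.6 and 14.0 FPKM to 18.6 and 20.0 (0.46, adjusted p = 0.0332), a call that was lost under both other scalings and in 5 of the 8 fits that left out 1 library. Rab13, which serves tight junctions and surface delivery, fell in cardiomyocytes from 10.4 and 10.7 FPKM to 4.43 and 4.80 (-1.04, SE 0.15, adjusted p = 0.000542), while fibroblasts overlapped at 9.29 to 11.9 FPKM. Rab10, of insulin-responsive glucose transporter delivery, rose in both cell types, from 37.8 and 37.2 FPKM to 56.9 and 53.0 in cardiomyocytes and from 53.5 and 48.3 FPKM to 80.3 and 66.4 in fibroblasts. Neither call held with FPKM as deposited or with equal sums. Rab40c, an adaptor of a ubiquitin ligase, fell in fibroblasts from 12.5 and 13.1 FPKM to 9.09 and 7.94 (-0.54, adjusted p = 0.0171), and the call was lost when either neonatal fibroblast library was left out.

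Rab23 (mm9 chr1:33776727-33799409), known as a negative regulator of hedgehog signalling, was higher in fibroblasts than in cardiomyocytes. It measured 40.0 and 25.0 FPKM in neonatal fibroblasts, 12.4 at PN28 and 16.5 at PN60, and 3.89, 3.83, 3.74 and 3.29 FPKM in the cardiomyocyte libraries from youngest to oldest. Fibroblast libraries were all above cardiomyocyte libraries, and neonatal fibroblasts above later ones. It fell by 1.09 in fibroblasts (SE 0.23, adjusted p = 0.00827), did not pass in cardiomyocytes (-0.11, adjusted p = 0.702), and was lower in cardiomyocytes by 2.26 over both ages (SE 0.16, adjusted p = 9.24e-06). The difference of changes was 0.99 (adjusted p = 0.0338) and was lost in 6 of the 8 fits that left out 1 library. Its cardiomyocyte level was 11.9% (neonatal) and 24.3% (later) of its fibroblast level. The medians of the 6 fibroblast markers in the same libraries were 9.38% (range 6.88% to 82.1%) and 19.6% (range 4.11% to 74.5%). The part of other cells in the Rab23 level of cardiomyocytes was not tested.

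Rab12, a member of recycling endosome to lysosome traffic, can be read only in part. Its main transcript, Rab12-205, carries 92.9% to 99.0% of the gene's FPKM in the cells but has the status LOWDATA, which the main sums leave out. The remaining transcripts measured 1.06 to 6.22 FPKM in the cells. With that transcript kept, Rab12 measured 44.3 and 48.2 FPKM in neonatal cardiomyocytes, 102 at PN30 and 114 at PN67, and 42.3 and 38.0 FPKM in neonatal fibroblasts, 98.9 at PN28 and 63.0 at PN60. It then rose in both, by 1.21 (adjusted p = 0.00127) and 0.96 (adjusted p = 0.00827). The comparison of the cell types turned from -0.86 (adjusted p = 0.00465) to 0.32 (adjusted p = 0.0719). Rab40b was at or near 0 without its LOWDATA transcript and measured 1.07 and 0.755 FPKM, then 2.60 and 2.74, in cardiomyocytes with it. Rab43 failed in the PN67 cardiomyocyte library and was left out of the cell tests.

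Among exocytosis members, Rab3a had the largest rise of the family. Rab3a (mm9 chr8:73278578-73282576) is the synaptic and secretory vesicle member best known from neurons. It measured 7.42 and 5.63 FPKM in neonatal cardiomyocytes, 46.0 at PN30 and 38.8 at PN67, a 6.50-fold ratio of the means. In fibroblasts it measured 3.46 and 4.13 FPKM in the neonatal libraries, 1.15 at PN28 and 2.74 at PN60. Every later cardiomyocyte library exceeded every other cell library. The change was 2.53 in cardiomyocytes (SE 0.27, adjusted p = 0.000118) and -0.75 in fibroblasts (adjusted p = 0.0567; -0.99 and 0.0181 with FPKM as deposited, -1.01 and 0.0173 with equal sums). The difference of changes was 3.29 (SE 0.38, adjusted p = 0.000304), and cardiomyocytes exceeded fibroblasts by 2.29 over both ages (adjusted p = 1.82e-05). Rab3a in neonatal fibroblasts was at 58.1% of its neonatal cardiomyocyte level, above the 9.69% median of the cardiomyocyte markers, and at 4.59% in the later libraries. Rab3d, the secretory granule paralog, measured 0.624 and 0.521 FPKM in neonatal cardiomyocytes, 2.05 at PN30 and 4.76 at PN67 (1.42, SE 0.36, adjusted p = 0.00899, or 0.96 with adjusted p = 0.0539 without the PN67 library).

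**Figure D3:**
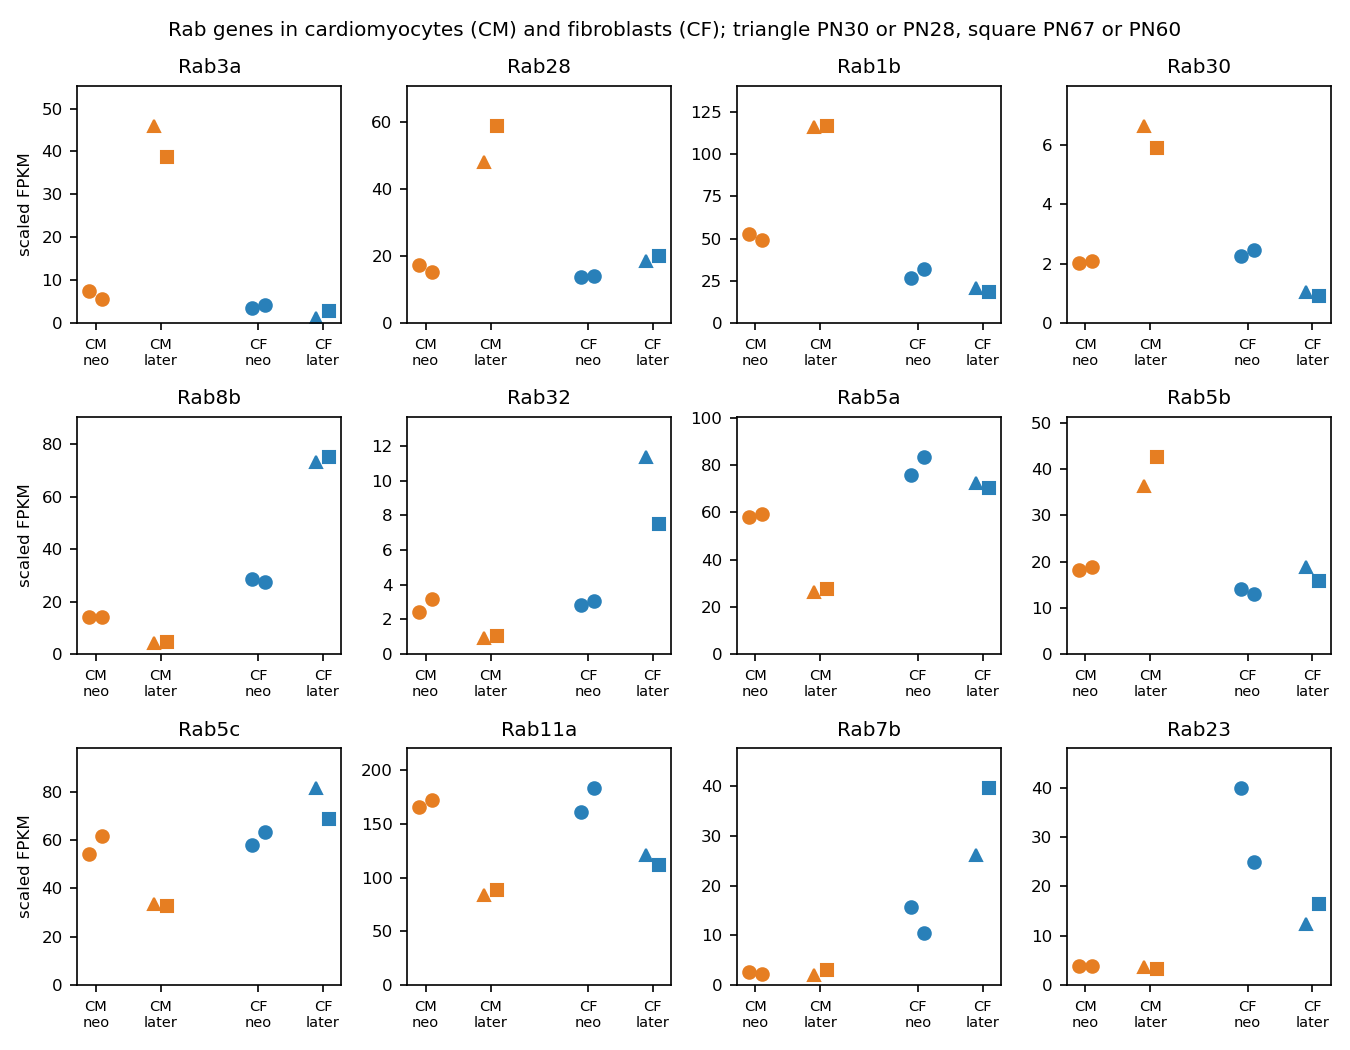
Scaled FPKM of 12 Rab genes in each of the 8 cell libraries, on linear axes from 0 (orange cardiomyocytes, blue fibroblasts, circles neonatal, triangles PN30 or PN28, squares PN67 or PN60). Rab8b and Rab32 fall in cardiomyocytes and rise in fibroblasts, Rab1b and Rab30 do the reverse, and Rab5b rises where Rab5a and Rab5c fall.

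The upstream sequences of the members with the largest changes are shown because Rab3a and Rab28 rose in both cardiomyocytes and ventricles, while Rab8b fell in cardiomyocytes. RefSeq promoters (GRCm38.p6) matched 48 of the 59 members. The 250 bases before the most upstream start site are given for Rab3a (chr8:70754453-70754702, plus strand), Rab28 (chr5:41708180-41708429, minus) and Rab8b (chr9:66919706-66919955, minus), with GC boxes (GGGCGG) and CCAAT boxes (CCAAT) of either strand in capitals.
Rab3a: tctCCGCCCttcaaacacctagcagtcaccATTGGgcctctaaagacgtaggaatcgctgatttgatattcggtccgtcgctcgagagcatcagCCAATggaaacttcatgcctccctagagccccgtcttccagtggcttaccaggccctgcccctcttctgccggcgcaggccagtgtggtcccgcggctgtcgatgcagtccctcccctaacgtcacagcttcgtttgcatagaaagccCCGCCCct
Rab28: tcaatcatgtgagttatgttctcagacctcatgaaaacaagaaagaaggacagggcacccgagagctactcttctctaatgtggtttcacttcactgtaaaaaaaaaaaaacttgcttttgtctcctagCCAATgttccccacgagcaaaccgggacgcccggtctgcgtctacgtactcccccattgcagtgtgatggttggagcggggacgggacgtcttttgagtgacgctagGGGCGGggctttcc
Rab8b: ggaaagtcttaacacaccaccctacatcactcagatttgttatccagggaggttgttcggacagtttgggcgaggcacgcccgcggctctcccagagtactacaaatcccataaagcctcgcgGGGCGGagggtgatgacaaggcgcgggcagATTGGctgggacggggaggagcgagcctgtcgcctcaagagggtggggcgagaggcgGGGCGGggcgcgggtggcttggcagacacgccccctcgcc
All 3 windows held both motifs, and in none of them did matches overlap. The window of a second Rab3a start site (chr8:70754852-70755101, plus strand) held 0 GC boxes and 0 CCAAT boxes. The same was true of the window of Rab24, which also rose in cardiomyocytes (chr13:55321981-55322230, minus). A GC box lay in 40 of the 60 Rab promoter windows (66.7%), against 32.7% of all 32851 windows, and a CCAAT box in 24 (40.0%), against 33.8%. The 60 windows came from 48 members, so some members count more than once. The set of all windows was not limited to expressed or protein-coding genes, so the shares are not matched. A match describes letters only and is not a site of binding.

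Over both ages, 27 of the 37 tested members differed between the cell types, against a background of 76.7%. Of these, 8 were higher in cardiomyocytes (background 37.2%) and 19 in fibroblasts (background 39.5%), with a median of -0.25 against -0.06 over all genes. With equal sums the split was 8 and 24. All libraries of one type lay beyond those of the other for 18 of the 37, against 46.1% of all genes. Among non-overlapping members, the largest differences toward cardiomyocytes were those of Rab3a (2.29), Rab1b (1.66), Rab24 (0.95) and Rab11b (0.72, adjusted p = 9e-05). Toward fibroblasts they were Rab7b (-2.65), Rab8b (-2.39, adjusted p = 1.7e-07), Rab23 (-2.26), Rab15 (-1.84), Rab34 (-1.56, adjusted p = 1.21e-05) and Rab31 (-1.35, adjusted p = 1.22e-05). Rab1a and Rab1b were called in opposite directions, Rab1a at -0.88 (SE 0.08, adjusted p = 4.44e-05). So were Rab11b and Rab11a (-0.23, adjusted p = 0.0274, but 0.15 from transcripts of at least 1000 nt, and lost in 4 of the fits that left out 1 library), and Rab5b (0.79) against Rab5a (-0.90) and Rab5c (-0.61).

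In whole ventricles, 38 members passed the filter, and 10 had a slope over the 5 stages that passed the test (7 rising, 3 falling), against a background of 35.2% (19.0% rising, 16.2% falling). The slope is in log2(FPKM + 1) per stage. Rab28 measured 9.32, 13.5, 18.9, 29.6 and 34.7 FPKM from E17 to PN90, higher at every stage than before (slope 0.47, SE 0.05, adjusted p = 0.00461). Rab3a measured 7.02, 8.25, 17.4, 22.7 and 22.9 FPKM (0.45, SE 0.08, adjusted p = 0.00873). Rab30 measured 4.13, 4.47, 4.98, 7.71 and 10.5 FPKM (0.30, adjusted p = 0.0118), and Rab7b 1.24, 1.49, 2.55, 4.06 and 3.70 FPKM (0.32, adjusted p = 0.013). Rab22a, an early endosome member, measured 6.55, 7.24, 9.09, 11.8 and 13.3 FPKM (0.25, adjusted p = 0.00935). Rab5b went from 18.7 at E17 to 29.98 FPKM at PN90 (0.16, adjusted p = 0.0326), and Rab12 without its main transcript from 3.10 to 6.41 FPKM (0.24, adjusted p = 0.0137). With that transcript kept, Rab12 measured 59.8 FPKM at E17, 192 at PN28 and 180 at PN90.

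Rab13, Rab15 and Rab34 fell in ventricles. Rab13 measured 12.3, 11.9, 8.65, 4.45 and 4.78 FPKM (slope -0.36, SE 0.07, adjusted p = 0.0123). Rab34 measured 7.33, 5.43, 4.35, 3.65 and 2.97 FPKM, lower at each stage (-0.26, adjusted p = 0.00866). Rab15 went from 3.26 FPKM at E17 to 0.972 at PN28 and 1.28 at PN90 (-0.27, adjusted p = 0.0284). With 1 library per stage these slopes rest on single libraries: 2 calls remained without E17, and Rab28 alone passed in each of the 5 fits that left out 1 library. With FPKM as deposited the split was 5 rising and 7 falling, and with equal sums 4 and 5, and the calls of Rab5b and Rab12 were lost in both. The call of Rab22a was lost with equal sums (0.16, adjusted p = 0.0517). Rab11a (85.1, 88.6, 103, 75.3 and 71.5 FPKM) and Rab23 (4.03, 3.57, 6.59, 2.95 and 1.91 FPKM) passed no slope test. In bulk tissue, fewer cells of a type and less RNA per cell cannot be told apart.

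**Figure D4:**
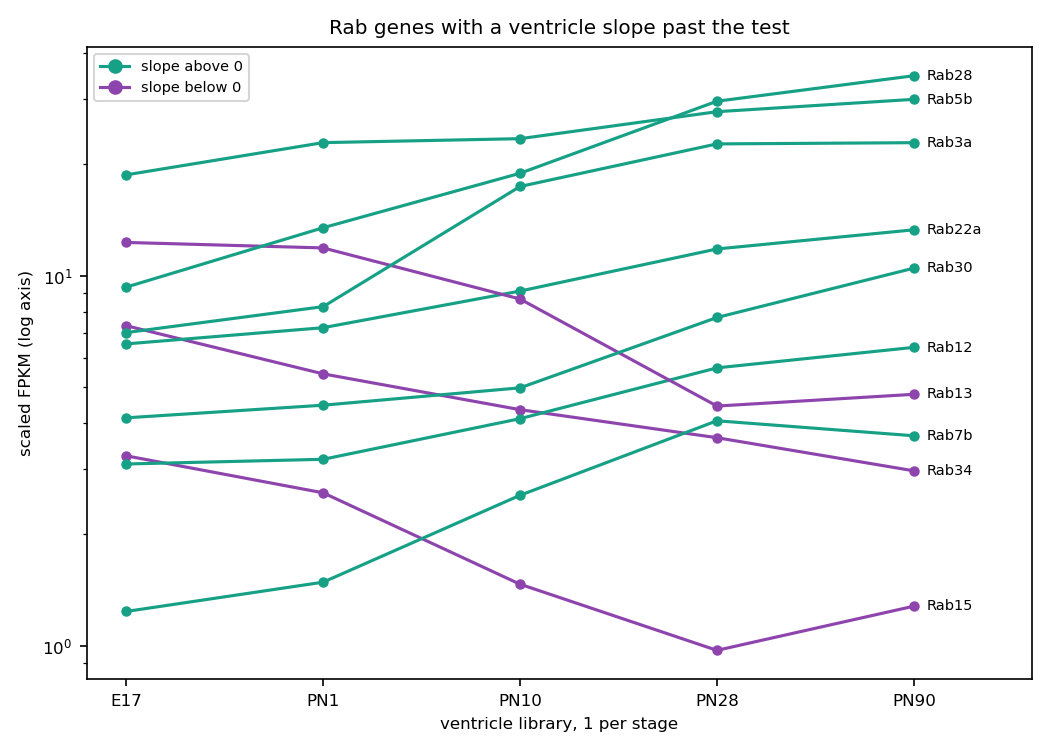
Scaled FPKM, on a log axis, of the 10 Rab genes with a ventricle slope past the test, at 5 stages with 1 library each. Green lines have slopes above 0 and purple lines below 0; Rab28 climbs from 9.32 to 34.7 FPKM and Rab34 declines from 7.33 to 2.97 FPKM without a turn. Rab12 is drawn without its main transcript.

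Ventricle and cell libraries share no sample, so their directions can be set side by side. As scaled here, all 13 members that rose in cardiomyocytes had a ventricle slope above 0 (100%, against 82.9% of all genes that rose there), and 4 of these slopes passed the test. The cardiomyocyte calls of Rab10, Rab11b, Rab14 and Rab18 were lost under both other scalings, and that of Rab20 with equal sums. The slopes of Rab11b (0.04), Rab14 (0.07) and Rab20 (0.09) were small. The median slope of all genes shifted from 0.00 to -0.09 with FPKM as deposited and -0.08 with equal sums. Of the 10 members that fell in cardiomyocytes, 7 had a slope below 0 (against 79.9% of all genes that fell), and 2 passed. Those that passed included Rab15, whose cell and ventricle values rested largely on different transcripts. Of the 8 members that rose in fibroblasts 7 had a slope above 0 (against 67.02% of all genes that rose there), and of the 5 that fell 2 had a slope below 0 (against 64.2%). Rab8b, with opposite changes in the 2 cell types, measured 13.03 FPKM at E17 and 9.13 at PN90 in ventricles, and its slope of -0.11 did not pass (adjusted p = 0.078), but passed with FPKM as deposited (-0.21, adjusted p = 0.0153) and with equal sums (-0.20, adjusted p = 0.0288).

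Transcript shares could be tested for 40 Rab isoforms of 15 genes in the cells. A change was called at an adjusted p under 0.05 and at least 10 percentage points. In cardiomyocytes 6 isoforms of 4 genes changed with age (against a background of 17.5% of 11189 isoforms). Without 1 or the other neonatal cardiomyocyte library, 2 or 3 calls were left. In fibroblasts limma called 0 (background 3.50%), with 6 of the 40 at an unadjusted p under 0.05, against 2678 of all 11189 isoforms. Between the cell types 8 isoforms of 5 genes differed (20.0%, background 17.0%). In ventricles limma called 0 of 29 (background 1.41%), with 6 at an unadjusted p under 0.05, against 1959 of all 9871 isoforms.

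Rab6a, which carries vesicles from the Golgi back to the ER and toward the surface, has a pair of mutually exclusive exons. Rab6a-201 carries one of them, and Rab6a-202 and Rab6a-203 the other, and they correspond to coding bases 184 to 289. Both are 106 bases long and differ at 30 positions, in capitals. They lie side by side at GRCm38 chr7:100629838-100629943 (in Rab6a-201) and chr7:100629666-100629771 (in Rab6a-202), plus strand.
Rab6a-201: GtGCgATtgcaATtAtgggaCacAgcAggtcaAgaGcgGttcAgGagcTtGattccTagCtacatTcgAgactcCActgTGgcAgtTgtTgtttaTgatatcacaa
Rab6a-202: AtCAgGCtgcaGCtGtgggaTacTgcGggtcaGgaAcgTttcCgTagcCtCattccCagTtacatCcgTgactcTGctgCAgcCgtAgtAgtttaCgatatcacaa
Rab6a-201 held 67.1% and 64.4% of the gene's FPKM in neonatal cardiomyocytes, 52.5% at PN30 and 54.5% at PN67, and 69.6% to 75.6% in fibroblasts. Its share fell by 12.3 percentage points in cardiomyocytes (adjusted p = 0.0116) and was lower there than in fibroblasts by 12.9 points (adjusted p = 0.000881). Rab6a-203 went from 4.47% and 0.00283% to 10.6% at PN30 and 14.2% at PN67 (10.2 points, adjusted p = 0.0405). Rab6a-202 was higher in cardiomyocytes than in fibroblasts by 11.3 points (adjusted p = 0.0194). Over the gene, Rab6a fell in cardiomyocytes from 49.4 and 52.9 FPKM to 37.01 and 37.08 (-0.45, adjusted p = 0.00563, or 0.0537 without the second neonatal library). In ventricles Rab6a-203 held 53.5% to 59.3%, against at most 14.2% in any cell library, a contrast between different library kits that was not tested. Rab6a exons share 708 bases with those of Mrpl48 on the opposite strand.

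**Figure D5:**
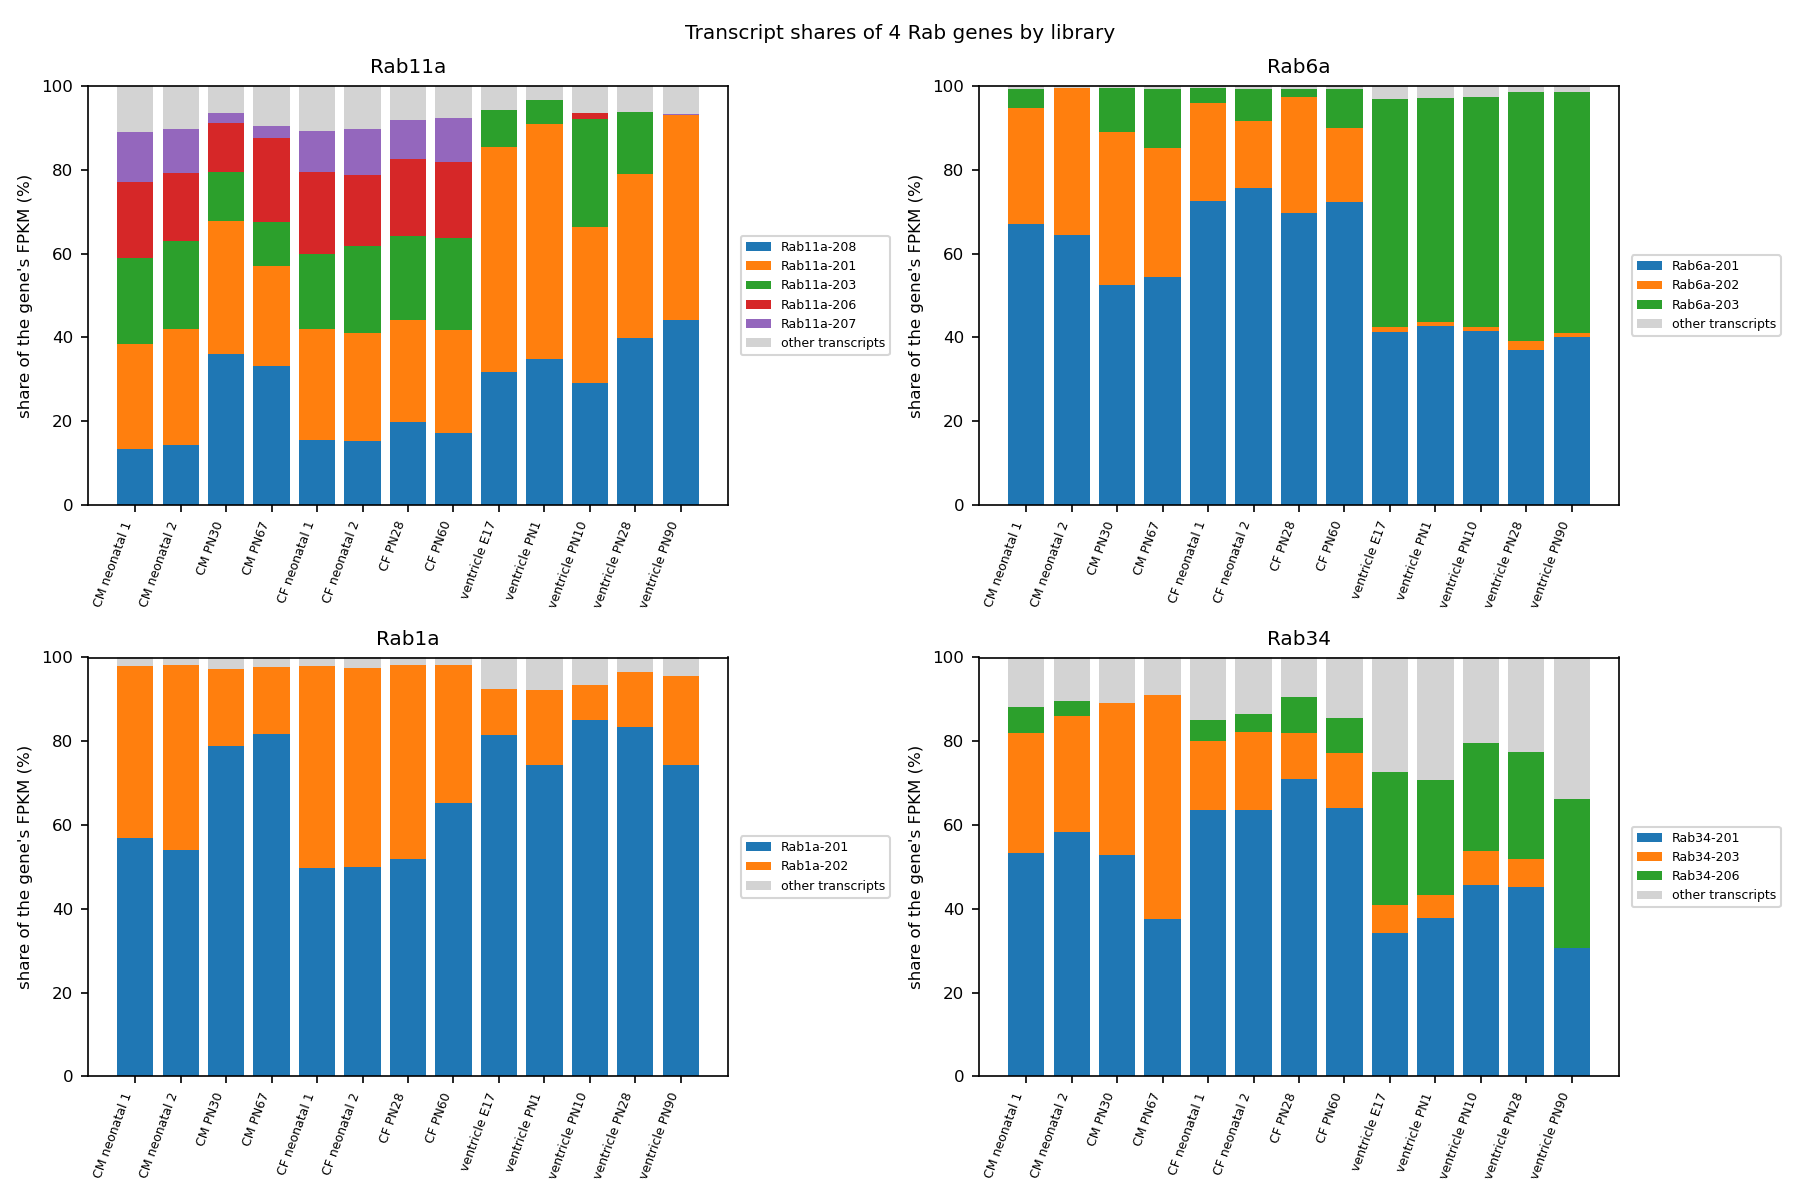
Share of each gene's FPKM, in percent, held by the named transcripts of Rab11a, Rab6a, Rab1a and Rab34 in each of the 13 libraries, as stacked bars. The blue Rab11a-208 band widens and the blue Rab6a-201 band narrows in CM PN30 and CM PN67. The ventricle bars differ in makeup from the cell bars for Rab6a, Rab11a and Rab34.

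Rab1a was outside this test because 1 of its transcripts, at 0 in all libraries, has the status LOWDATA. With that transcript dropped, an alternative added after its values were seen, its 2 main transcripts changed in cardiomyocytes. Rab1a-201 went from 56.9% and 54.1% to 78.9% at PN30 and 81.6% at PN67 (24.8 points, adjusted p = 0.00223), and Rab1a-202 from 41.1% and 44.1% to 18.4% and 16.02% (-25.4 points, adjusted p = 0.00172). In fibroblasts neither changed past the test (8.68 and -8.10 points).

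Other called isoforms were few. Rab34-203 rose in cardiomyocytes from 28.5% and 27.7% to 36.2% at PN30 and 53.4% at PN67 (16.7 points, adjusted p = 0.0357) and exceeded its fibroblast share by 21.7 points (adjusted p = 0.000314), while Rab34-201 was lower in cardiomyocytes by 15.1 points (adjusted p = 0.00754). Rab40c-201 rose in cardiomyocytes by 12.58 points (adjusted p = 0.0298), and Rab40c-207 fell by 11.3 points (adjusted p = 0.0207). Rab40c-201 was also 11.05 points above its fibroblast share (adjusted p = 0.00844). In ventricles Rab34-203 held only 0.0116% to 8.07% of its gene, and Rab34-206 held 25.5% to 35.5%. Rab40c-201 held 0.00275% to 16.8% in ventricles, against 36.5% to 60.3% in the cells. These contrasts are between different library kits and were not tested. Rab3a-201 was 11.9 points above its fibroblast share (adjusted p = 0.00356). Rab23-201 was 10.3 points above and Rab23-202 was 11.54 points below the fibroblast share (adjusted p of 0.00168 and 0.00335), in a gene of at most 3.89 FPKM in cardiomyocytes. For Rab8a, the ventricle level of 28.8 to 58.7 FPKM rested on a 542-nt retained-intron transcript that held 85.3% to 90.7% of it, against 11.4% to 41.3% in the cells. The ventricle slope of Rab8a did not pass as scaled here (-0.24, limma adjusted p = 0.0593). It passed with FPKM as deposited (-0.35, adjusted p = 0.0251) and with equal sums (-0.34, adjusted p = 0.0126).

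Members below the filter were Rab3b, Rab3c, Rab6b, Rab9b, Rab17, Rab19, Rab25, Rab26, Rab27b, Rab33a, Rab36, Rab37, Rab38, Rab39, Rab39b, Rab40b, Rab42 and Rab44 in cells and ventricles, with Rab27a in cells and Rab43 in ventricles. They reached at most 1.98 FPKM in any cell library and 1.82 in any ventricle library. Without the filter some of these passed the test, and the following were chosen after their values were seen. Rab39b measured 1.98 at PN28 and 1.50 FPKM at PN60 in fibroblasts, against 0.237 and 0.148 in the neonatal libraries (1.20, SE 0.09, adjusted p = 0.00118). Rab27b, of secretory granule docking, went from 1.28 and 1.20 FPKM to 0.192 and 0.220 in cardiomyocytes and from 1.29 and 1.53 FPKM to 0.216 and 0.291 in fibroblasts (-0.89 and -0.94). Rab42 rose in cardiomyocytes from 0.366 and 0.239 FPKM to 1.55 and 1.43 (0.94, adjusted p = 0.000436). These levels are low, and the scale understates such changes.

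The regulators and effectors that act on Rab proteins were read from lists chosen with earlier results of these data known. Of 33 tested exchange factors 12 rose and 9 fell in cardiomyocytes, with a median change of 0.06, and 7 rose and 3 fell in fibroblasts. These counts and those that follow stand against 36.9% of all genes higher and 30.3% lower in cardiomyocytes, and 19.7% and 21.4% in fibroblasts, and the cardiomyocyte counts of exchange factors are near that background. Dennd4b, an exchange factor for Rab10, rose from 3.33 and 2.94 FPKM to 16.3 and 15.7 (2.04, adjusted p = 2.76e-05), and Rab3ip, the Rab8 exchange factor Rabin8, from 11.2 and 10.9 FPKM to 21.4 and 26.2 (1.03, adjusted p = 0.000594). In fibroblasts Rab3ip fell from 8.50 and 7.01 FPKM to 3.52 and 3.61 (-0.94, adjusted p = 0.00252), and its changes in the 2 cell types differed by 1.97 (adjusted p = 0.000232). Dennd4a, an exchange factor for Rab10, fell in cardiomyocytes from 9.34 and 8.88 FPKM to 1.62 and 1.65 (-1.94, adjusted p = 0.000162), and Dennd5b fell as well. In ventricles 2 of 31 exchange factors rose and none fell (all genes 19.0% rising, 16.2% falling).

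Of 35 tested GTPase-activating proteins, 13 rose and 11 fell in cardiomyocytes (median 0.40; all genes 36.9% and 30.3%), a share near the background, and 2 rose and 6 fell in fibroblasts (all genes 19.7% and 21.4%). The paired regulators of glucose transporter vesicles moved in opposite directions. Tbc1d4 (AS160), which acts on Rab8a, Rab10 and Rab14, rose from 5.37 and 4.11 FPKM to 17.995 and 17.5 (1.71, adjusted p = 0.000123), and Tbc1d1 fell from 15.1 and 13.4 FPKM to 2.89 and 3.38 (-1.88, adjusted p = 9.57e-05). In ventricles Tbc1d4 measured 9.05, 8.16, 9.44, 18.4 and 22.6 FPKM (slope 0.35, adjusted p = 0.0203) and Tbc1d1 12.66, 11.2, 7.87, 5.54 and 4.11 FPKM (slope -0.37, adjusted p = 0.00492). Of 44 tested effectors, 22 rose and 10 fell in cardiomyocytes (median 0.54, against 0.09 over all genes; 36.9% and 30.3% of all genes called), and 13 rose and 3 fell in fibroblasts (all genes 19.7% and 21.4%). Fyco1, a Rab7 effector that links vesicles to kinesin, rose from 17.0 and 13.5 FPKM to 127 and 126 (2.98, adjusted p = 6.22e-06), and Plin3, a lipid droplet protein that binds Rab9, from 11.8 and 11.6 FPKM to 79.6 and 112 (2.91, adjusted p = 1.71e-05). In fibroblasts Myrip and Myo5a rose, by 2.22 and 1.33. In ventricles 11 of 43 effectors rose and 2 fell (all genes 19.0% and 16.2%), led by Optn, a Rab8 effector, at 14.3, 19.2, 26.8, 79.9 and 118.9 FPKM (slope 0.79, adjusted p = 0.00475). Of the 9 prenylation and recycling genes 4 rose and 2 fell in cardiomyocytes (all genes 36.9% and 30.3%); Rabggta, a subunit of the Rab prenylating enzyme, went from 4.43 and 4.26 FPKM to 10.2 and 9.66 (1.03, adjusted p = 0.000202).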

How the data were processed

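RNA sequencing of 13 mouse heart libraries (8 cell, 5 ventricle) was analysed. Per the submitters' processing notes, the authors used TopHat2 2.0.5 and Cufflinks 2.1.1 with mm9. The deposited tables give FPKM with its confidence bounds, and a coverage signal per transcript, per the file headers. The deposited coverage signal was used only to compare depth: 19.5 to 32.8 units per FPKM across libraries. Read numbers were not used here. The interval around FPKM had a median half-width of 6.10% to 9.75% over Rab isoforms of at least 1 FPKM, for counting and assignment error only. Each library contributed 1 table of 94696 transcripts, of which 82379 (87.0%) matched GENCODE M21, which gave gene symbols; unmatched transcripts held 6.59% to 9.97% of FPKM.

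Gene FPKM summed transcripts of at least 200 nt with status other than LOWDATA; 90 genes in cells and 64 in ventricles with status FAIL or HIDATA were left out. Levels were divided by median-ratio factors (0.869 to 1.14) computed separately in cells and ventricles. A gene entered the tests where its mean FPKM reached 1, on log2(FPKM + 1), which understates changes of low genes, with limma 3.58.1 (R 4.3.3, trend, two-sided, adjusted p under 0.05): 4 cell classes with 4 residual degrees of freedom (later minus neonatal in each cell type, their difference, and cardiomyocytes minus fibroblasts), and a slope over 5 ventricle stages with 3. Isoforms were tested with limma on the log2 ratio of a transcript to the rest of its gene with 0.5 added, for genes of mean FPKM at least 5 and at least 1 in each library and mean shares of 5% to 95%. The fits were tested on simulated data. Members, lists and comparisons were chosen with earlier results of these data known. Named were Rab11a and Rab23, up to 6 called, non-overlapping members per direction and comparison, up to 8 with the largest difference of changes, the 5 highest members per tissue, members with called isoforms and paralogs called in opposite directions; other members are described beyond that rule after their values were seen. Alternatives were other pseudocounts, filters and scalings, LOWDATA transcripts kept, each library left out, each cell type alone, 2 ventricle classes and other isoform thresholds; sums over transcripts of at least 1000 nt or protein-coding ones, and isoforms of genes with LOWDATA transcripts, were chosen after seeing the data. Exons of 20 members overlap those of another gene in the annotation, 8 of them a protein-coding one.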

Additional observations from a re-analysis of the deposited data

Results flagged for a closer look

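For 18 Rab genes the postnatal change differed between cardiomyocytes and fibroblasts in the test of the difference itself (cardiomyocyte change minus fibroblast change, log2(FPKM + 1) scale, limma, adjusted over all genes). The difference was above 0 for Rab3a (3.29), Rab30 (2.02), Rab1b (1.72), Rab24 (1.43), Rab28 (1.19), Rab23 (0.99) and Rab5b (0.72). It was below 0 for Rab8b (-2.88), Rab32 (-2.31), Rab7b (-1.22), Rab5c (-1.09), Rab15 (-1.08), Rab13 (-0.96), Rab5a (-0.94), Rab35 (-0.77), Rab7 (-0.76), Rab20 (-0.73) and Rab6a (-0.41). In 12 of the 18 the call held in each of the 8 fits that left out 1 library; it was lost at least once for Rab5b, Rab6a, Rab7, Rab7b, Rab20 and Rab23. Rab24 shares exon bases with Prelid1, and the part of other cells in the cardiomyocyte and fibroblast libraries was not tested.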

How the results depend on the processing

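Leaving out 1 library gave 20 to 24 calls in cardiomyocytes (23 with all), 5 to 20 in fibroblasts (13), 25 to 30 between cell types (27), 12 to 25 for the difference of changes (18) and 2 to 13 for the ventricle slope (10). For isoforms the ranges were 2 to 8 in cardiomyocytes (6), 0 to 3 in fibroblasts (0), 7 to 10 between cell types (8) and 0 in ventricles. The fibroblast count was 8 from the 4 fibroblast libraries alone. The ventricle count was 6 at a mean FPKM of at least 5. Isoform counts were 11 in cardiomyocytes and 15 between cell types at 5 percentage points, and 1 in fibroblasts at a gene mean FPKM of at least 2. Rab11a reversed with transcripts of at least 1000 nt, to 0.32 in cardiomyocytes and 0.15 between cell types, and Rab12 between cell types with LOWDATA transcripts kept, to 0.32; these alternatives change which transcripts are summed. Over the gene results that were named by the rule and passed in the main fit, 1311 values kept their direction and side of the threshold. Of the rest, 105 kept only their direction and 3 reversed. Results that passed only under another setting, such as those of Rab1a and Rab7 in cardiomyocytes, are not in this count. No paired analysis was possible because the labels give the groups no shared replicate numbers. Depth in reads is unknown. The deposited interval around FPKM was summarised only for isoforms of at least 1 FPKM, so no counting error is stated here for lower ones.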
